A study of Schizosaccharomyces pombe with 6 samples.

Results

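The genes described here encode the subunits of the 3 nuclear RNA polymerases of fission yeast (Schizosaccharomyces pombe) and of Mediator. They were taken from the count table by the product text in the authors' deposited table, which had to hold the words "DNA-directed RNA polymerase" or "mediator complex". This wording found 49 of 6988 features, and all 49 were protein-coding genes with enough counts to be tested. Of these, 48 encode subunits: 7 of polymerase I only, 3 of polymerase II only, 10 of polymerase III only, 7 shared between polymerases and 21 of Mediator. The remaining match, SPAC4H3.04c, is a MEMO1 family gene whose product text mentions Mediator in passing, and it was kept apart from the subunits. The wording missed 4 polymerase II subunit genes, rpb1, rpb2, rpb3 and rpb11, whose product text reads differently. Their values are given beside the members and are not counted among them.

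RNA polymerase I transcribes the large ribosomal RNA precursor, polymerase II transcribes mRNAs and many noncoding RNAs, and polymerase III makes tRNAs and 5S rRNA. Each has a pair of large catalytic subunits, a stalk that holds initiation factors and nascent RNA, and a TFIIS-like subunit used in RNA cleavage or proofreading. A set of small subunits is common to all of them. Mediator links DNA-bound activators to polymerase II at promoters. Its head and middle modules contact the polymerase, its tail contacts activators, and a dissociable kinase module carries a cyclin-dependent kinase with its cyclin.

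Poly(A)+ RNA was sequenced from 3 libraries of strain AGP259, of genotype h- pla1-Y86D::kanMX, and from 3 libraries of strain AGP257, of genotype h- pla1-WT::kanMX. Pla1 is the nuclear poly(A) polymerase, and Y86D changes a residue of its active site. Both strains carry the kanMX marker at pla1 and were sampled in log phase in YES, a rich medium. Each genotype is a single strain, and whether its libraries came from separate cultures is not stated, so p-values measure only the spread between these libraries.

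The libraries held 17594840 to 21849845 counts, and the subunit genes with SPAC4H3.04c had 192 to 8700 counts each per library. Gene counts do not show the Y86D base change, so the labels could not be checked through it. The pla1 mRNA itself (SPBC646.04) was at 48.1, 47.7 and 46.5 CPM in pla1-Y86D libraries, against 35.8, 36.3 and 37.6 CPM in pla1-WT libraries. CPM is the count scaled to the TMM-adjusted library total. The summed level of 6 M-cell genes, which h- cells express, was 94.2 to 99.3 CPM in pla1-Y86D and 99.7 to 108 CPM in pla1-WT. That of the P-cell genes map2 and map3 was 13.1 to 15.2 CPM in pla1-Y86D and 16.2 to 17.7 CPM in pla1-WT. None of these marker genes was at 0 in all libraries. Genes within each sum moved in both directions. By log2 fold change of pla1-Y86D over pla1-WT, mfm2 (-0.95), mam1 (-0.26) and map3 (-0.69) were lower. In turn mam2 (0.80), sxa2 (0.28) and map2 (0.58) were higher, and mfm1 and mfm3 were not called.

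Most subunit mRNAs were lower in pla1-Y86D than in pla1-WT, by small amounts. Of the 48 subunit genes, 9 were higher, 33 were lower and 6 were not called by edgeR's quasi-likelihood test at a Benjamini-Hochberg adjusted p under 0.05 over all features tested. The calls over all 6267 features tested were 40.1% higher and 41.1% lower, and over the 4996 protein-coding features they were 35.6% higher and 46.8% lower. The subunit genes thus had 18.8% higher and 68.8% lower calls. Their median log2 fold change was -0.17, beside -0.05 for the protein-coding features and 0.00 for all features. All 3 pla1-Y86D libraries lay below all 3 pla1-WT libraries for 31 subunit genes and above them for 10, against backgrounds of 41.5% below and 40.4% above for all features. Of the 4996 protein-coding features, 2350 lay below and 1804 above in the same way. In bulk RNA, fewer cells of a type and less RNA per cell cannot be told apart, and values scaled to the library total do not show a shift common to most mRNAs. Because poly(A)+ RNA was sequenced and Pla1 is the poly(A) polymerase, less mRNA and lower poly(A)+ recovery cannot be told apart either. In the authors' deposited table, 44 of the 49 matches had the same call, and the other 5 (nuc1, rpc2, rpc82, rpc40 and srb6) were called here but not there.

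**Figure D1:**
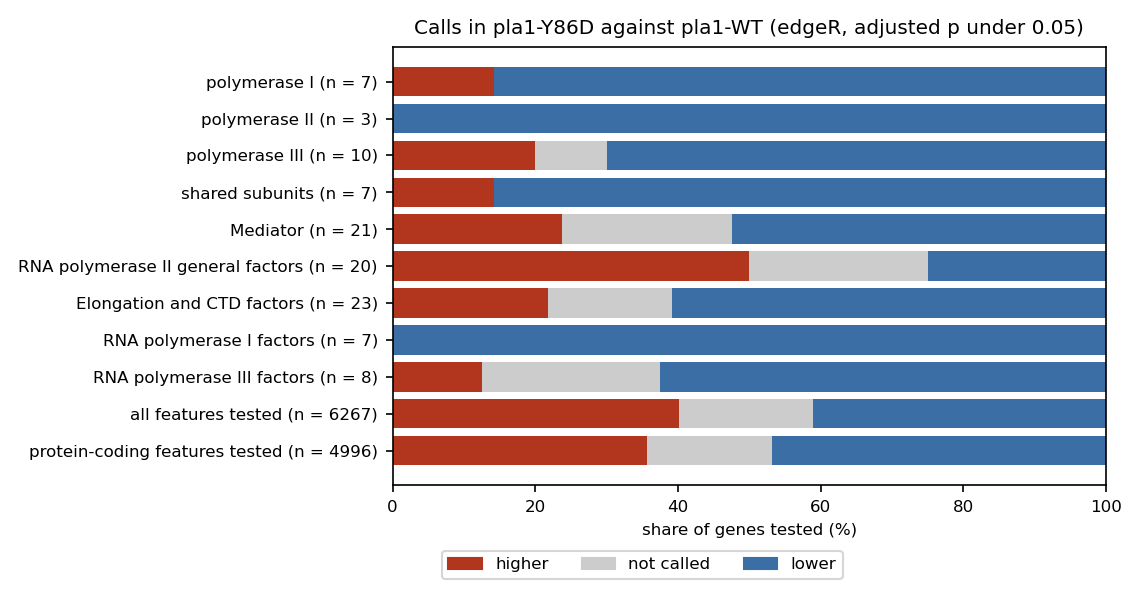
Share of genes called higher (red), not called (grey) or lower (blue) in pla1-Y86D against pla1-WT, as a percent of the genes tested, for each class of subunit genes, each list of related factors and the 2 backgrounds. Lower calls make up 52.4% of the Mediator genes, near the 46.8% of protein-coding features. They make up 70 to 100% of each polymerase class, and 41.1% of all features tested.

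Among the 27 polymerase subunit genes, 4 were higher and 22 lower, with a median log2 fold change of -0.23. Polymerase I had 1 gene higher and 6 lower of 7, polymerase II 0 higher and 3 lower of 3, and polymerase III 2 higher and 7 lower of 10. Among the 21 Mediator genes, 5 were higher and 11 lower, with a median of -0.13. The Mediator share of lower calls, 52.4%, was near the 46.8% of protein-coding features. With scaling to library totals alone, polymerase I had 0 higher and 6 lower and polymerase III 1 higher and 7 lower, and in a fit of protein-coding features only, Mediator had 6 higher and 8 lower. The summed level of each class was lower in pla1-Y86D, and the libraries of the strains did not overlap. Polymerase I subunits summed to 1374 ± 24.6 CPM in pla1-Y86D and 1539 ± 22.8 CPM in pla1-WT (SD, n = 3 each). For polymerase III the sums were 833 ± 9.31 CPM in pla1-Y86D and 931 ± 17 CPM in pla1-WT. Those of the shared subunits were 1222 ± 17.3 CPM in pla1-Y86D and 1444 ± 19.5 CPM in pla1-WT. These sums in pla1-Y86D were 89.3%, 89.4% and 84.6% of those in pla1-WT. Mediator summed to 1061 ± 3.45 CPM in pla1-Y86D and 1180.5 ± 6.54 CPM in pla1-WT, or 89.9%. The 3 polymerase II members summed to 244 ± 7.55 CPM in pla1-Y86D and 296 ± 6.39 CPM in pla1-WT, or 82.6%. The lower sums came with members on both sides of 0 in every class but polymerase II.

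**Figure D2:**
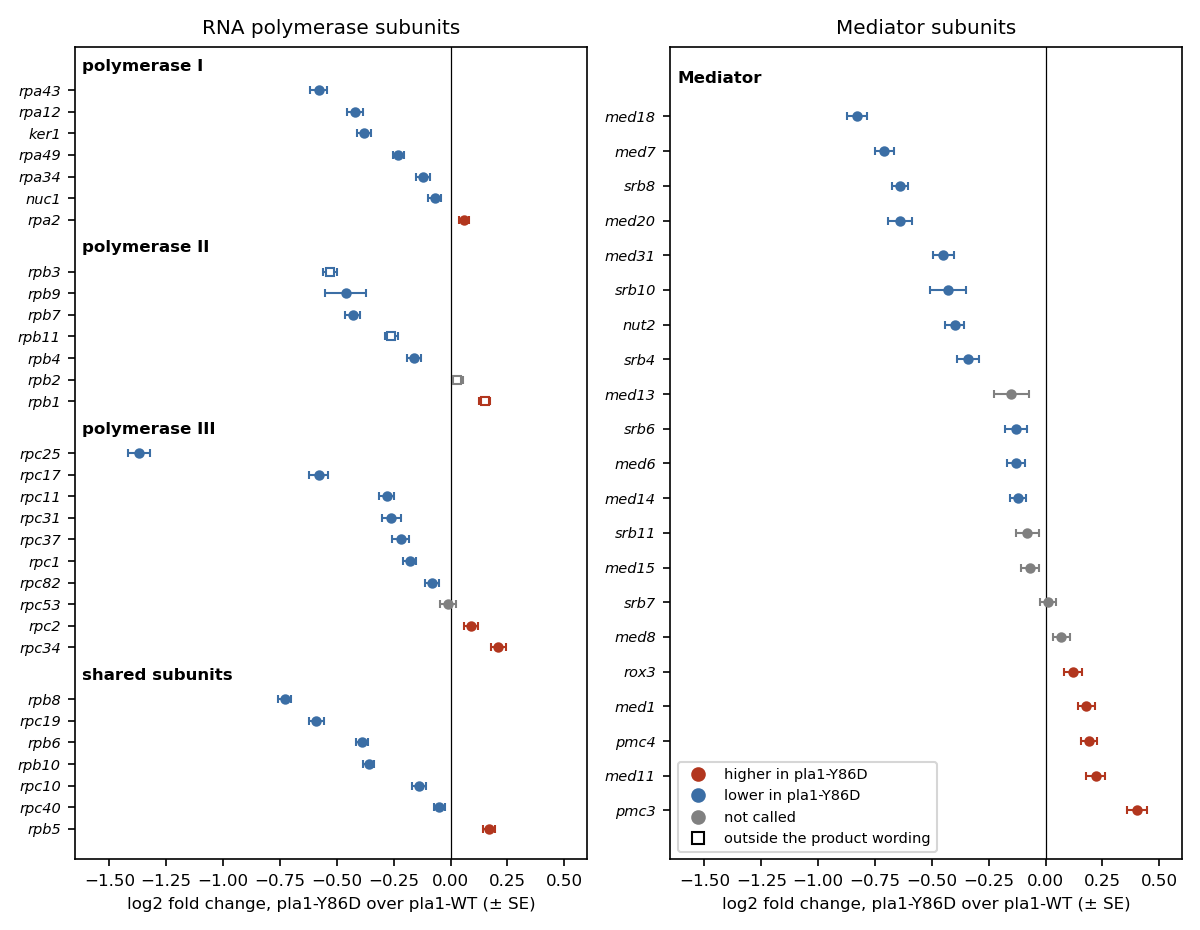
Log2 fold change of each subunit gene, pla1-Y86D over pla1-WT, with its standard error, for the polymerases (left) and Mediator (right). Red, blue and grey mark genes called higher, called lower and not called, and open squares mark the 4 polymerase II genes outside the product wording. The values run from -1.37 for rpc25 to 0.40 for pmc3.

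The catalytic subunits, which form the active centre, changed by small amounts in both directions. The 4 among the members had a median log2 fold change of 0.00, with 2 higher and 2 lower. The largest polymerase I subunit, nuc1 (SPBC4C3.05c), was at 312, 329 and 341 CPM in pla1-Y86D libraries, against 337, 344 and 349 CPM in pla1-WT libraries. The strains' libraries overlapped for nuc1, and its small decrease was called (log2 fold change -0.07, SE 0.027, edgeR adjusted p = 0.0197). Its partner rpa2 (SPBP23A10.07) was at 403, 412 and 411 CPM in pla1-Y86D libraries, against 388, 389 and 399 CPM in pla1-WT libraries. The libraries did not overlap for rpa2, but the increase was small (0.06, SE 0.023, edgeR adjusted p = 0.0166). Leaving out single libraries ended the nuc1 call in 3 of 6 cases, without pla1-Y86D replicate 1 or pla1-WT replicates 2 or 3. The rpa2 call was lost in 4 of 6, without pla1-Y86D replicates 2 or 3 or pla1-WT replicates 1 or 2.

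In polymerase III the catalytic subunits moved in opposite directions. The largest subunit, rpc1 (SPBC651.08c), was at 116, 118 and 116 CPM in pla1-Y86D libraries, against 128, 135 and 132 CPM in pla1-WT libraries. Every pla1-Y86D library was below every pla1-WT library, and rpc1 fell (log2 fold change -0.18, SE 0.029, edgeR adjusted p = 1.68e-06). Its partner rpc2 (SPAC4G9.08c) was at 128, 127 and 129.6 CPM in pla1-Y86D libraries, against 113, 124 and 124 CPM in pla1-WT libraries. It rose by less than rpc1 fell, and pla1-WT replicate 1 stood below the rest (0.09, SE 0.032, edgeR adjusted p = 0.0139). Without that library the rpc2 change was 0.04 and was not called (edgeR adjusted p = 0.194), and its call was also lost without pla1-Y86D replicate 3 (edgeR adjusted p = 0.0506).

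The catalytic subunits of polymerase II stood outside the wording. The largest, rpb1 (SPBC28F2.12), which carries the C-terminal repeat domain, was at 498, 494 and 503 CPM in pla1-Y86D libraries, against 462, 434 and 447 CPM in pla1-WT libraries. It rose, with no overlap of the libraries (log2 fold change 0.15, SE 0.025, edgeR adjusted p = 1.02e-06). Its partner rpb2 (SPAC23G3.01) was at 294, 285 and 288 CPM in pla1-Y86D libraries, against 281, 279 and 289 CPM in pla1-WT libraries. The rpb2 libraries overlapped and no difference was called (0.03, SE 0.024, edgeR adjusted p = 0.252), but in the fit of protein-coding features only it was called higher (0.08, edgeR adjusted p = 0.00188).

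All 6 stalk genes fell, beside 46.8% of protein-coding features, with a median log2 fold change of -0.50. The largest decrease of any subunit gene was that of rpc25 (SPBC2G5.07c, chromosome II), which encodes the larger stalk subunit of polymerase III. Its level was 22.6, 24.1 and 25.3 CPM in pla1-Y86D libraries, against 58.9, 62.9 and 64.2 CPM in pla1-WT libraries. The pla1-Y86D libraries were all well below the pla1-WT libraries, at 38.8% of the pla1-WT level (log2 fold change -1.37, SE 0.05, edgeR adjusted p = 4.19e-23). In the RefSeq annotation of assembly ASM294v3, rpc25 overlaps hmt2 on the same strand, so the split of reads between these genes depends on the authors' counting. The hmt2 mRNA moved the other way, at 536, 527 and 529 CPM in pla1-Y86D libraries, against 459, 452 and 459.8 CPM in pla1-WT libraries (0.22, SE 0.023, edgeR adjusted p = 3.45e-10). The part of the overlap in the rpc25 value was not tested.

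The partner of Rpc25 in the stalk is encoded by rpc17 (SPAPB1E7.10), whose level was 43.7, 40.4 and 40.4 CPM in pla1-Y86D libraries, against 60.3, 61.7 and 63.5 CPM in pla1-WT libraries. It fell to 67% of the pla1-WT level, with no overlap of the libraries (log2 fold change -0.58, SE 0.043, edgeR adjusted p = 2.13e-14). The polymerase I stalk gene rpa43 (SPBC3B9.07c) was at 111, 108 and 121 CPM in pla1-Y86D libraries, against 162, 173 and 173 CPM in pla1-WT libraries. Its decrease was of the same size as that of rpc17 (-0.58, SE 0.036, edgeR adjusted p = 1.21e-12), and its partner ker1 fell by less (-0.38). In polymerase II, rpb7 (SPACUNK4.06c) was at 89, 90.9 and 88.8 CPM in pla1-Y86D libraries, against 121, 124 and 116 CPM in pla1-WT libraries. Rpb7 binds RNA leaving the enzyme, and its mRNA fell by 0.43 on the log2 scale (SE 0.033, edgeR adjusted p = 4.93e-14). Its stalk partner rpb4 also fell, by 0.16. In each stalk pair the members thus differed in the size of the decrease, although both fell.

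**Figure D3:**
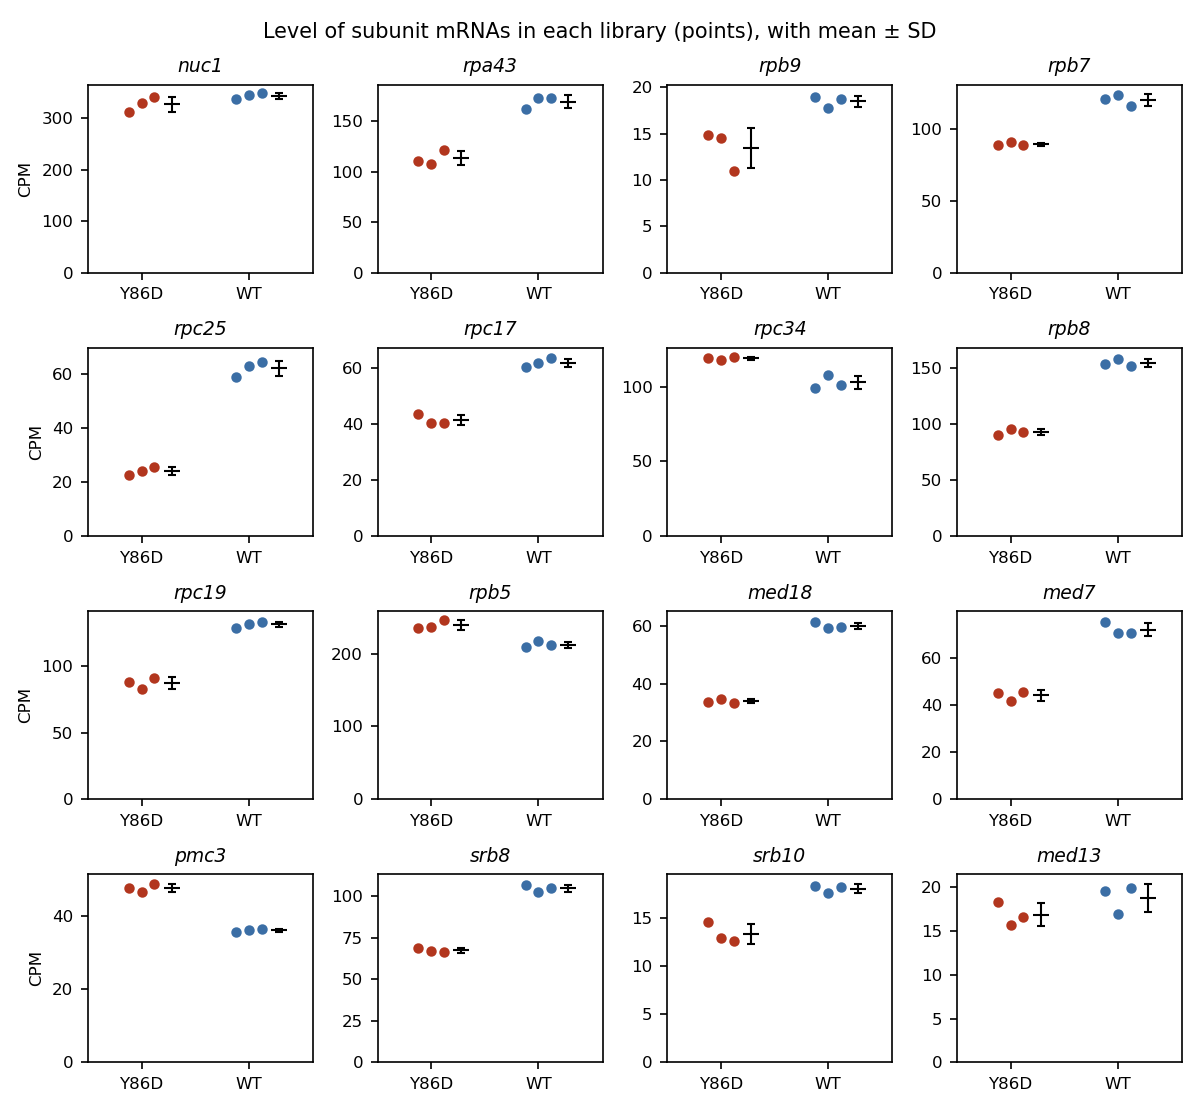
Level in CPM of 16 subunit mRNAs in each library, pla1-Y86D in red and pla1-WT in blue, with the mean and SD of 3 libraries beside the points and a linear axis starting at 0 in each panel. The strains do not overlap in any panel but those of nuc1 and med13, and rpc34, rpb5 and pmc3 are higher in pla1-Y86D.

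The TFIIS-like subunits fell in all 3 polymerases. The polymerase I gene rpa12 (SPCC1259.03) was at 90.1, 83.8 and 86.5 CPM in pla1-Y86D libraries, against 118, 111 and 118 CPM in pla1-WT libraries. It fell with no overlap of the libraries (-0.42, SE 0.034, edgeR adjusted p = 2.6e-13). The polymerase II gene rpb9 (SPAPYUG7.04c) was at 14.9, 14.5 and 11 CPM in pla1-Y86D libraries, against 19, 17.8 and 18.7 CPM in pla1-WT libraries. All pla1-Y86D libraries were below the pla1-WT libraries, and pla1-Y86D replicate 3 was the lowest (-0.46, SE 0.09, edgeR adjusted p = 3.2e-05). Leaving out each library in turn gave values from -0.54 to -0.33 for rpb9, all called. The polymerase III gene rpc11 fell by 0.28.

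The TFIIF-like pairs of polymerases I and III, which help initiation, had log2 fold changes from -0.23 to -0.01. In polymerase I, rpa49 fell by 0.23 and rpa34 by 0.12 on the log2 scale. In polymerase III, rpc37 fell by 0.22, while rpc53 was not called, at -0.01 (edgeR adjusted p = 0.781) and at 0.04 in the fit of protein-coding features only. Of the trimer that recruits polymerase III to its promoters, rpc31 fell by 0.26, and rpc82 had a log2 fold change of -0.08 with overlapping libraries. The rpc82 call was lost without pla1-Y86D replicate 1, without pla1-Y86D replicate 2 and without pla1-WT replicate 3. The third member of the trimer, rpc34 (SPCC290.02), moved the other way. It was at 119, 118 and 120.1 CPM in pla1-Y86D libraries, against 99.4, 108 and 101 CPM in pla1-WT libraries. Its increase was the largest among the polymerase genes (0.21, SE 0.032, edgeR adjusted p = 4.53e-07).

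Of the 7 shared subunit genes, 6 fell (85.7%, beside 46.8% of protein-coding features), with a median log2 fold change of -0.36 over the 7. The small subunit gene rpb8 (SPBC14C8.12), whose protein is found in every polymerase, was at 90.2, 95.3 and 93.1 CPM in pla1-Y86D libraries, against 153, 158 and 152 CPM in pla1-WT libraries. It fell to 60.3% of the pla1-WT level (-0.73, SE 0.03, edgeR adjusted p = 1.95e-21), with all pla1-Y86D libraries below the pla1-WT libraries. The assembly subunit rpc19 (SPAC1687.01), shared by polymerases I and III, was at 88.3, 82.5 and 91.4 CPM in pla1-Y86D libraries, against 129, 132 and 133 CPM in pla1-WT libraries. It fell by 0.59 on the log2 scale (SE 0.033, edgeR adjusted p = 1.6e-17). Its dimer partner rpc40 changed by -0.05, at the edge of the call (edgeR adjusted p = 0.049), and that call held in 3 of 13 alternative settings, with no decrease in the fit of protein-coding features only (0.0033). The equivalent pair of polymerase II, rpb3 and rpb11, lies outside the wording. The rpb3 mRNA was at 91.5, 95.3 and 90.9 CPM in pla1-Y86D libraries, against 137, 129.9 and 134 CPM in pla1-WT libraries. It fell by 0.53 (SE 0.032, edgeR adjusted p = 6.14e-17), and rpb11 fell by 0.26.

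Among the subunits common to all polymerases, rpb6 fell by 0.39, rpb10 by 0.36 and rpc10 by 0.14 on the log2 scale. The gene rpb5 (SPAC23C4.15), which encodes a jaw subunit that contacts downstream DNA, was the exception. Its level was 235, 237 and 247 CPM in pla1-Y86D libraries, against 209, 217 and 212 CPM in pla1-WT libraries. It rose with no overlap of the libraries (0.17, SE 0.026, edgeR adjusted p = 2.71e-07). With the 4 genes outside the wording added, polymerase II had 1 gene higher, 5 lower and 1 not called of 7, with a median of -0.26.

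Mediator had genes called in both directions in its head and middle modules. In the head, 1 of 7 genes rose and 5 fell (14.3% and 71.4%), beside 35.6% higher and 46.8% lower among protein-coding features. The head gene med18 (SPAC5D6.05) had the largest decrease in Mediator, at 33.7, 34.6 and 33.2 CPM in pla1-Y86D libraries, against 61.2, 59.1 and 59.7 CPM in pla1-WT libraries. It fell to 56.4% of the pla1-WT level, with no overlap (-0.83, SE 0.043, edgeR adjusted p = 1.25e-18). Med18 and Med20 form a movable part of the head, and med20 fell by 0.64. The head gene med11 (SPAC644.10) rose, at 55.1, 57 and 55.6 CPM in pla1-Y86D libraries, against 49, 50 and 45.5 CPM in pla1-WT libraries (0.22, SE 0.043, edgeR adjusted p = 2.54e-05). Srb4, the Med17 subunit at the core of the head, had an mRNA that fell by 0.34 on the log2 scale. The other head genes changed little: med6 by -0.13, srb6 (Med22) by -0.13 and med8 by 0.07, of which med8 was not called (edgeR adjusted p = 0.0617). It was called higher without pla1-Y86D replicate 3 (0.09, edgeR adjusted p = 0.0298), with median-of-ratios scaling (0.08, edgeR adjusted p = 0.0424) and in the fit of protein-coding features only (0.13, edgeR adjusted p = 0.0017). The srb6 call was lost without pla1-Y86D replicates 2 or 3 and without pla1-WT replicates 1 or 3, with edgeR adjusted p of 0.0527, 0.0659, 0.0544 and 0.148.

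In the middle module 3 of 7 genes rose and 3 fell (42.9% each), near the 35.6% higher and 46.8% lower among protein-coding features. The middle gene med7 (SPBC14F5.08) was at 45.1, 41.6 and 45.5 CPM in pla1-Y86D libraries, against 75.2, 70.4 and 70.5 CPM in pla1-WT libraries. It fell to 61.3% of the pla1-WT level (-0.71, SE 0.042, edgeR adjusted p = 7.05e-17). Its neighbours in the module med31 and nut2 (Med10) fell by 0.45 and 0.40. The rises were smaller, at 0.19 for pmc4 (Med4), 0.18 for med1 and 0.12 for rox3 (Med19). For srb7 (Med21), which pairs with Med7, the log2 fold change was 0.01 with overlapping libraries (edgeR adjusted p = 0.741), and it was -0.0092 with library totals. The scaffold gene med14 fell by 0.12.

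Of the tail, pmc3 (Med27, SPAC17C9.05c) had the largest increase of any subunit gene. Its level was 47.9, 46.7 and 48.9 CPM in pla1-Y86D libraries, against 35.8, 36.2 and 36.5 CPM in pla1-WT libraries. The pla1-Y86D libraries were all above the pla1-WT libraries (0.40, SE 0.044, edgeR adjusted p = 3.75e-10). The other tail gene, med15, was not called (-0.07, edgeR adjusted p = 0.0996). It was called lower without pla1-WT replicate 1 (-0.10, edgeR adjusted p = 0.028) and with library totals (-0.09, edgeR adjusted p = 0.0316).

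The kinase module had 2 of 4 genes lower and none higher, beside 46.8% lower and 35.6% higher among protein-coding features. Its share of lower calls, 50%, was thus near the background. The gene of its kinase, srb10 (Cdk8, SPAC23H4.17c), was at 14.5, 12.9 and 12.6 CPM in pla1-Y86D libraries, against 18.3, 17.5 and 18.2 CPM in pla1-WT libraries. It fell with no overlap (-0.43, SE 0.078, edgeR adjusted p = 6.22e-06). The cyclin gene srb11 (cyclin C, SPBC12D12.06) was at 30.2, 30.4 and 29.4 CPM in pla1-Y86D libraries, against 31, 31.1 and 33 CPM in pla1-WT libraries. All its pla1-Y86D libraries were below the pla1-WT libraries, but by little, and the difference was not called (-0.08, SE 0.052, edgeR adjusted p = 0.143). Med12, which activates the kinase, is encoded by srb8 (SPAC688.08), at 68.8, 67.3 and 66.3 CPM in pla1-Y86D libraries, against 107, 103 and 105 CPM in pla1-WT libraries. It fell to 64.3% of the pla1-WT level (-0.64, SE 0.034, edgeR adjusted p = 2.42e-18). Med13, which joins the module to core Mediator, had its mRNA (med13, SPAC589.02c) at 18.3, 15.7 and 16.6 CPM in pla1-Y86D libraries, against 19.5, 16.9 and 19.9 CPM in pla1-WT libraries. The med13 libraries overlapped and no difference was called (-0.15, SE 0.078, edgeR adjusted p = 0.0709). It was called lower without pla1-Y86D replicate 1 (-0.21, edgeR adjusted p = 0.03), without pla1-WT replicate 2 (-0.22, edgeR adjusted p = 0.0145) and with library totals (-0.17, edgeR adjusted p = 0.0415).

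Levels per kilobase of RefSeq transcript spread widely within each complex. Shared subunits had the highest levels, with a median of 230.2 CPM per kb in pla1-Y86D and 239 in pla1-WT, led by rpb10 at 393 in pla1-Y86D and 505 in pla1-WT. Polymerase I genes had a median of 116 CPM per kb in pla1-Y86D and 139 in pla1-WT, and polymerase III genes one of 55.7 in pla1-Y86D and 62.5 in pla1-WT. Mediator genes were the lowest, with medians of 27.7 in pla1-Y86D and 30 in pla1-WT. Within Mediator the range ran from med13, at 4.74 CPM per kb in pla1-Y86D and 5.27 in pla1-WT, to srb7, at 131 in pla1-Y86D and 130.2 in pla1-WT. In polymerase III, rpc25 was the lowest gene in pla1-Y86D at 11.2 CPM per kb, while in pla1-WT it stood at 29, beside rpc1 at 28.9. The highest polymerase III gene, rpc11, was at 167 CPM per kb in pla1-Y86D and 203 in pla1-WT. The highest level in polymerase III was thus 14.8 times the lowest in pla1-Y86D and 7.04 times the lowest in pla1-WT. These values rest on annotated transcript lengths, so a transcript that differs from its model has another level. The rpc25 level, and with it the ratio of 14.8, also depends on how reads in the overlap with hmt2 were counted.

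**Figure D4:**
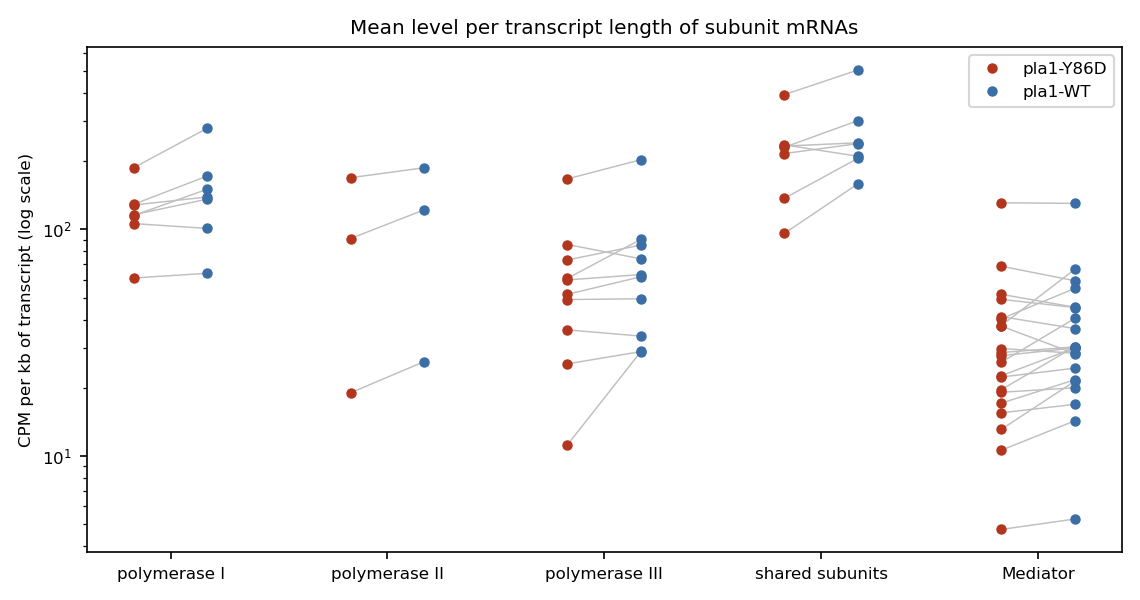
Mean level of each subunit mRNA in CPM per kb of RefSeq transcript on a log axis, pla1-Y86D (red, left) joined to pla1-WT (blue, right) by a line for each gene, in 5 classes. Shared subunits lie highest and Mediator genes lowest. The steepest line in polymerase III is that of rpc25, which overlaps hmt2 on the same strand, at 11.2 in pla1-Y86D and 29 in pla1-WT.

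The lower calls were most frequent among short genes. Of the 19 subunit genes with a transcript under 1000 nt, 17 were lower and 1 higher, with a median log2 fold change of -0.42. For all 953 protein-coding features of that length, 42.8% were lower and 37.6% higher, and the median was -0.02. From 1000 to 2000 nt, 8 of 15 subunit genes were lower and 5 higher. Of 2123 protein-coding features of that length, 41.5% were lower and 40.9% higher. At 2000 nt or more, 8 of 14 subunit genes were lower and 3 higher. Of 1920 protein-coding features of that length, 54.5% were lower and 28.8% higher. Across the 48 subunit genes, the log2 fold change had a Spearman rho of 0.29 with transcript length, and across the 4996 protein-coding features rho was -0.15. This is a description across genes of the same libraries, and genes are not independent replicates. With intron number rho was -0.22 for the subunit genes and 0.04 for all protein-coding features, and with mean level 0.18 and -0.02. The subunit genes lie on all 3 chromosomes, with 14 of 20 lower on chromosome I, 15 of 21 on II and 4 of 7 on III. Over all protein-coding features tested, 46.8% were lower.

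Most of these genes share sequence with a neighbouring transcript. By the ASM294v3 annotation, 46 of the 49 matches overlap another feature, and 4 do so on the same strand: rpb9 with mid2, rpc25 with hmt2, rox3 with grx3, and rpc34 with SPNCRNA.1251. Whether the counting used strand is not given in the sources used here, so counts of overlapping and antisense pairs are uncertain. In the count table, 31 of the overlapping features were found by name or identifier, counting those at rpb3. The coding gene ilv3 opposite med20 was not found this way, so the set is not complete. Of the 21 coding features found on the opposite strand, 4 were higher and 15 lower, beside 35.6% higher and 46.8% lower among protein-coding features. Of the 6 noncoding features on the opposite strand, 3 rose and none fell, beside 57.5% higher and 19.1% lower among the 1187 noncoding features tested, so the share of increases was near the background. These were SPNCRNA.1112 opposite rpc37 (0.84), SPNCRNA.1496 opposite rpb8 (0.58) and SPNCRNA.1021 opposite rpb9 (0.43). The antisense RNA of rpa43 was at 8.65, 8.9 and 10.1 CPM in pla1-Y86D libraries, against 9.2, 8.1 and 10.5 CPM in pla1-WT libraries. The libraries overlapped and no difference was called (0.00, SE 0.1, edgeR adjusted p = 0.974), while rpa43 itself fell. The antisense RNA of rox3 was under 1 CPM on average in both strains and was not called (0.69, SE 0.37, edgeR adjusted p = 0.0839).

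Other genes of the transcription machinery, from a list that does not overlap the subunits, moved in both directions. Of 58 factors tested, 16 were higher, 31 lower and 11 not called, with a median log2 fold change of -0.10. These shares, 27.6% higher and 53.4% lower, stood beside 35.6% and 46.8% of protein-coding features. Polymerase II general factors were the group with most increases, with 10 of 20 higher and 5 lower. The TATA-binding protein gene tbp1 (SPAC29E6.08), whose product serves all 3 polymerases, was at 749, 763 and 754 CPM in pla1-Y86D libraries, against 461, 458 and 458 CPM in pla1-WT libraries. It had the largest increase of the list, with no overlap (0.72, SE 0.024, edgeR adjusted p = 3.51e-24). The TFIIB gene sua7, whose product positions polymerase II at the start site, averaged 100 ± 0.0865 CPM in pla1-Y86D and 70.6 ± 3.69 CPM in pla1-WT (0.50, edgeR adjusted p = 9.84e-15, SD, n = 3 each). The TFIIH kinase gene mcs6 averaged 99.1 ± 2.27 CPM in pla1-Y86D and 76.7 ± 0.346 CPM in pla1-WT (0.37, edgeR adjusted p = 3.89e-12, SD, n = 3 each). All 3 rose without overlap of the libraries.

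Of 23 elongation and C-terminal domain factors, 5 were higher and 14 lower. These shares, 21.7% and 60.9%, and those of the lists below stand beside 35.6% higher and 46.8% lower among protein-coding features. The Paf1 complex gene tpr1 (SPAC27D7.14c) was at 70.2, 64.1 and 63.8 CPM in pla1-Y86D libraries, against 129, 132 and 132 CPM in pla1-WT libraries. It had the largest decrease of the list, to 50.2% of the pla1-WT level (-0.99, SE 0.035, edgeR adjusted p = 1.54e-23). The histone chaperone gene spt6 averaged 102 ± 3.55 CPM in pla1-Y86D and 158 ± 1.05 CPM in pla1-WT (-0.63, edgeR adjusted p = 6.3e-20, SD, n = 3 each). The 7 polymerase I factors on the list all fell, with a median of -0.39. Of polymerase I factors not on it, the upstream factor genes acr1 (-0.53) and hmo1 (-0.15) were lower, and the termination factor gene eta2 was higher (0.55). The initiation factor gene rrn6, also not on it, was not called (-0.02, edgeR adjusted p = 0.645). Among the 7 polymerase I factors on the list, the largest decrease was that of rrn5. Its mRNA averaged 38.4 ± 0.896 CPM in pla1-Y86D and 60.2 ± 2.47 CPM in pla1-WT (-0.65, edgeR adjusted p = 1.42e-15, SD, n = 3 each). Of 8 polymerase III factors tested, 5 fell (62.5%) and 1 rose (12.5%), the repressor gene maf1 (0.20, edgeR adjusted p = 0.00439).

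**Figure D5:**
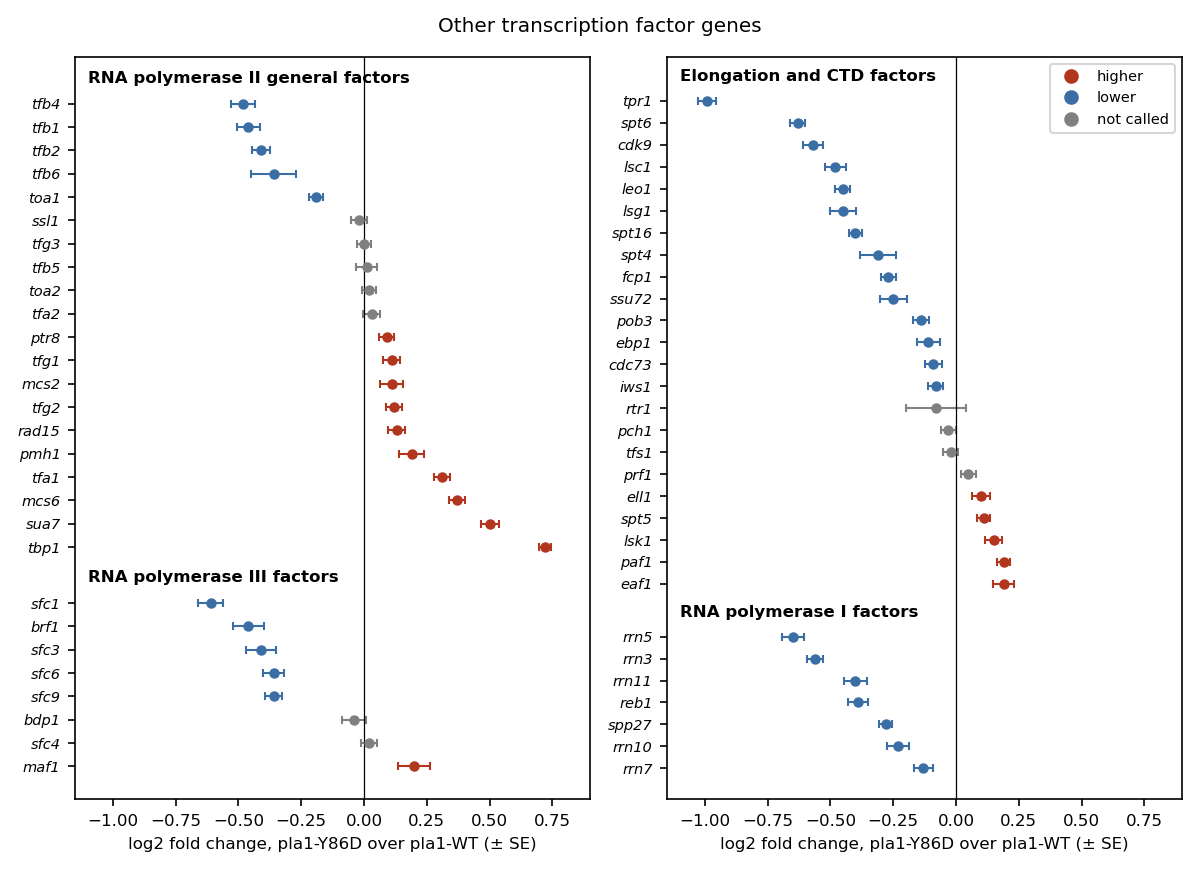
Log2 fold change, pla1-Y86D over pla1-WT, with its standard error, of 58 other transcription factor genes in 4 lists, coloured red for higher, blue for lower and grey for not called. The 7 polymerase I factors on the list lie below 0, and tbp1 (0.72) and tpr1 (-0.99) are the ends of the range.

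SPAC4H3.04c, the match that is no subunit, had the largest change of the 49. Its mRNA was at 30.9, 30.2 and 28.5 CPM in pla1-Y86D libraries, against 9.81, 10.9 and 11.7 CPM in pla1-WT libraries. It rose 2.76-fold, with no overlap of the libraries (log2 fold change 1.46, SE 0.073, edgeR adjusted p = 4.55e-19).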

How the data were processed

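Poly(A)+ RNA of 6 libraries was made into stranded libraries with an Illumina kit and sequenced as paired ends on a NovaSeq 6000, per the labels' protocols. The authors deposited whole-number read counts per annotated feature without normalization. The submitters' processing notes list DESeq and DESeq2, SAMtools, HTSeq 0.10.0 and HISAT2 2.1.0, and the build ASM294v2. Not given in the sources used here are the annotation release, the strand setting and how multiply aligned reads were treated. A table of the authors' comparison was also deposited. Its signal columns are mean normalized counts by the authors, its log2 columns a fold change and its error, its score column a test statistic and its p-value columns unadjusted and adjusted p-values, all as deposited. It gave product texts and calls only.

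The test was that of edgeR 4.0.16 in R 4.3.3 (filterByExpr, TMM scaling, robust quasi-likelihood fit, strain as the only term) over 6267 of 6988 features, after a check on simulated data, with Benjamini-Hochberg adjustment and a threshold of 0.05. Fold changes are log2 of pla1-Y86D over pla1-WT. Alternatives were median-of-ratios scaling, library totals, DESeq2 1.42.0, limma-voom (limma 3.58.1), no filter, protein-coding features only, a replicate block and leaving out each library. Replicate numbers did not pair the libraries. Within a strain, pairs of libraries had a chi-square of 1.63 to 4.77 per degree of freedom, above sampling noise.

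The subunit genes and the lists were chosen with earlier results of these data known. Per-library values are given by rule for the largest subunits, the kinase module and, in each class, up to 2 called members with the largest increase and decrease at a mean count of at least 50, and means for the 3 largest changes each way among related factors. Subunit modules, length classes, the values of rpb3 and rpb11, overlapping features and the genes drawn by library were chosen after values were seen. The placing of Med19 in the middle module and of Med15 and Med27 in the tail was made here. Protein-coding features were those of that RefSeq class (4996), and in the alternative those without a noncoding identifier (5024). That background and the noncoding one (SPNCRNA identifiers) were also settled after counts were seen. RefSeq ASM294v3 is not the build of the files and served for names, classes, lengths and overlaps only, so no coordinates or sequences are printed. Of the related list, tfb3 was not matched by name and sfc7 had too few counts to be tested.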

Additional observations from a re-analysis of the deposited data

How the results depend on the processing

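Of the 43 called matches, 35 (8 higher and 27 lower) kept their direction and call in all 13 alternatives. The calls of nuc1, rpa2, rpc2, rpc82, rpc40, srb6, med6 and med14 were lost in at least 1, all with log2 fold changes between -0.17 and 0.14. The uncalled med8, med13 and med15 each gained a call in at least 1 alternative, and so did rpb2, outside the wording. The cause was not tested. Over the alternatives, 8 to 11 matches were higher and 27 to 35 lower, beside 2065 to 2552 and 2068 to 2695 of the features each fit tested. The low ends, 2065 and 2068, came from the fit of protein-coding features only, which tested 5024 features instead of 6267. With library totals, polymerase I had 0 genes higher and polymerase III 1, srb7 was at -0.0092, and the summed Mediator log2 ratio was -0.177. With protein-coding features only, rpc53 was at 0.04 and rpc40 at 0.0033. Leaving out each library gave 0 to 1 polymerase I genes and 1 to 2 polymerase III genes higher, and log2 fold changes of -0.02 to 0.04 for srb7. With the replicate block, 10 matches were higher and 32 lower. The replicate numbers did not pair the libraries (correlations of same-numbered deviations -0.076, -0.007 and -0.045). The block ended the call of rpc40 alone among the matches (edgeR adjusted p = 0.0524). No scaling moved the median of all features by more than 0.027 from 0. The fit of protein-coding features only is centred on its own features, and in it the matches shifted upward. There nuc1 went from -0.07 to -0.02 and rpc25 from -1.37 to -1.31, and 27 matches were lower instead of 33. The largest changes kept their size, rpc25 between -1.41 and -1.31 and med18 between -0.85 and -0.77.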

Other observations

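Outside the wording and the lists of factors, 14 further genes had a product text that names an RNA polymerase, a set gathered after values were seen. Of these, 3 were higher in pla1-Y86D, 7 lower and 4 not called by edgeR, with a median log2 fold change of -0.09. The shares were 21.4% higher and 50% lower, beside 35.6% and 46.8% of protein-coding features, so the share of decreases was near the background. Several handle the assembly and transport of polymerase II before it reaches the DNA. The AAA ATPase gene npa3 averaged 164 ± 6.57 CPM in pla1-Y86D and 106 ± 3.65 CPM in pla1-WT (log2 fold change 0.64, SE 0.032, edgeR adjusted p = 1e-18, SD, n = 3 each). The nuclear import gene iwr1 averaged 77 ± 3.46 CPM in pla1-Y86D and 57 ± 1.54 CPM in pla1-WT (0.43, SE 0.039, edgeR adjusted p = 3.56e-12). In the other direction, the polymerase II associated protein gene rba50 averaged 11.6 ± 0.788 CPM in pla1-Y86D and 21.4 ± 0.3 CPM in pla1-WT (-0.88, SE 0.076, edgeR adjusted p = 1.04e-12). The import gene rtp1 was not called (0.07, edgeR adjusted p = 0.0775), so genes of this kind rose, fell or were not called.

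Among the rest, the termination factor homologue rhn1 had a log2 fold change of -0.66, the polymerase I upstream factor acr1 -0.53, the RNA-directed RNA polymerase gene rdp1, which acts in heterochromatin silencing, -0.48, and the mitochondrial polymerase gene rpo41 -0.33. All were called lower. The polymerase I termination factor gene eta2 was higher (0.55, SE 0.14), at a low level of 6.11 ± 1.26 CPM in pla1-Y86D and 4.16 ± 0.0684 CPM in pla1-WT (SD, n = 3 each).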
